A study of Mus musculus with 6 samples.

Results

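Cytosolic ribosomal protein genes were examined for DNA recovered with LncMyoD, a long non-coding RNA transcribed near the muscle regulator gene Myod1. Members were the protein-coding genes of the RefSeq annotation on chromosomes 1 to 19 whose symbol is Rpl or Rps followed by a digit, or Rplp0, Rplp1, Rplp2 or Rpsa. The Rps6k kinase genes and all pseudogene biotypes were left out. This gave 87 genes of 20661 protein-coding genes on those chromosomes. Of the 87, 73 carry the name of a ribosomal protein proper. The other 14 also match the symbol rule and are paralogs, genes with retrogene or pseudogene-like names that are typed as coding, or related genes: Rpl3l, Rpl22l1, Rpl39l, Rpl10l, Rpl36al, Rps27l, Rps27rt, Rpl37rt, Rpl32l, Rps23rg1, Rpl34-ps1, Rpl31-ps12, Rps19bp1 and Rpl7l1.

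The study used ChIRP-seq, in which biotin-labelled DNA probes pull an RNA out of sonicated nuclei together with the DNA attached to it, in myotubes grown from C57BL/6 primary myoblasts over 2 days in DMEM with 2% HS. The 6 samples were 2 captured with odd-numbered LncMyoD probes, 2 captured with even-numbered probes, and 2 of input DNA with no capture. The labels name no genotype change and no other treatment, and whether replicates came from different cultures is not stated. Each replicate has a single deposited peak list, named alike for its odd, even and input samples, so no contrast between odd capture, even capture and input was possible. Peaks report DNA and not RNA levels, so the identity of the cells as myotubes could not be checked against expressed markers.

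The cytosolic ribosome is built from a large and a small subunit, whose proteins carry the prefixes Rpl and Rps. Their genes are short, highly transcribed in nearly all cells, and many host small nucleolar RNAs in their introns. Their messenger RNAs typically begin with a terminal oligopyrimidine tract, a C followed by further pyrimidines at the first bases, through which the mTOR pathway controls their translation. Growth of muscle fibres depends on making ribosomes, and the amount of ribosomal RNA and protein synthesised changes as myoblasts leave the cell cycle and fuse.

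The list of replicate 1 held 157214 peaks and that of replicate 2 held 179630, with a median fold enrichment over the caller's background of 8.08 and 8.11. These folds and the q of each peak are the authors' values, and they are compared only within a list. Peaks that overlapped by at least 1 bp between the lists were joined into shared regions, of which 91707 lay on chromosomes 1 to 19. The strength of a region is the percentile of −log10 q that its best peak holds within each list, averaged between replicates. The depth behind the peaks is unknown, and there was no list from input or from an unrelated RNA to measure the background of the capture.

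A shared region lay within 5 kb of either end of 51 of the 87 ribosomal protein genes (58.6%, 95% exact binomial interval 47.6 to 69.1%). The share among all coding genes of these chromosomes was 58.9%, so the count is near the background. Ribosomal protein genes are short, with a median length of 3183 bp against 17643 bp for other coding genes. Among coding genes of matched length, taken as the 200 other genes nearest in length to each member, 53.4% had a shared region in the same window. In single lists, 62 members had a peak of replicate 1 (71.3%, against 63.8% at matched length and 70.2% of all coding genes). In replicate 2, 63 members had a peak (72.4%, against 69.9% at matched length and 76.2% of all coding genes). No test of these differences was made, because the list was chosen with results of these data known. Intervals treat genes as independent and cover counting error only.

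Where a region was present it was of ordinary strength. The best region of the 51 members had a median percentile of 73.3, against 72.3 at matched length and 74.1 for all other coding genes with a region. Across the 51 members the folds in the 2 lists had a Spearman correlation of 0.899, which describes regions that had to hold a peak of both lists and was not set against other genes. Folds of the best region ran from 4.41 to 70.7 in replicate 1, with a median of 14.7, and from 3.09 to 56.8 in replicate 2, with a median of 16.1. The plot of folds by gene gives both values for the members described here.

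**Figure D1:**
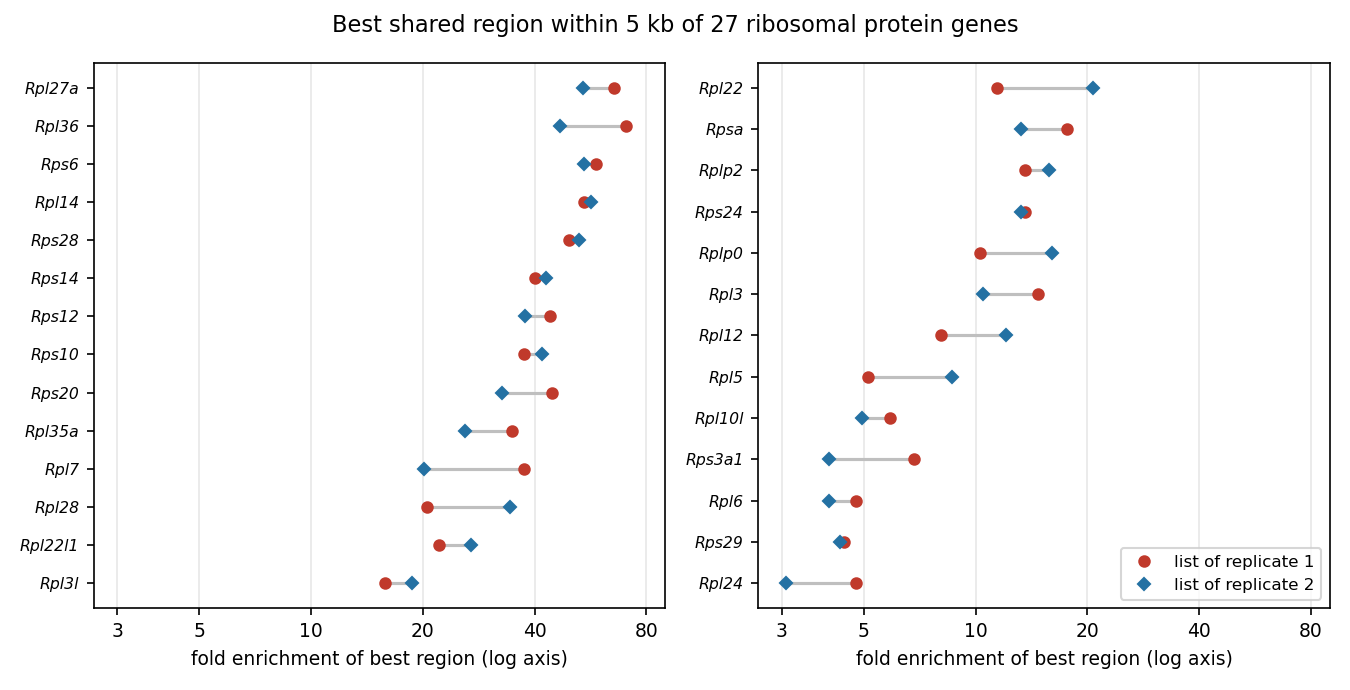
Fold enrichment of the best shared region within 5 kb of 27 ribosomal protein genes described in the text, of the 51 with such a region, ordered by mean percentile of −log10 q from the top of the left panel to the bottom of the right. Circles are replicate 1, diamonds replicate 2, and the axis is logarithmic. In replicate 1 the folds run from 4.41 at Rps29 to 70.7 at Rpl36, and in replicate 2 from 3.09 at Rpl24 to 56.8 at Rpl14.

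The strongest region belonged to Rpl27a, a large subunit gene on chromosome 7 (109519195 to 109522369, plus strand). The region ran from 109519450 to 109521019 inside the gene and reached 65.6-fold in replicate 1 and 54.1-fold in replicate 2. Rpl27a had 4 shared regions within 5 kb, of which 2 lay over the gene and 2 downstream of it. Rpl36, another large subunit gene, had a region of 2350 bp inside the gene on chromosome 17 (56611769 to 56614118). Its folds of 70.7 in replicate 1 and 46.9 in replicate 2 include the highest fold of any member in replicate 1. Rps6, whose protein is the small subunit target of kinases downstream of mTOR, had a region of 2718 bp on chromosome 4 (86855897 to 86858614). It reached 58.4-fold and 54.4-fold and covered the first base of the gene together with part of its body.

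Rpl14, a large subunit gene, had no shared region within 1 kb. Its strong region (54.4-fold and 56.8-fold) lay 3197 bp upstream and overlapped the neighbouring gene Entpd3, which encodes an ecto-nucleotidase. Rps28, a small subunit gene on chromosome 17, had a region of 49.6-fold and 52.6-fold over its start, which also overlapped the neighbour Ndufa7, a gene of respiratory complex I. Rps14 had a region of 40.1-fold and 42.8-fold that lay wholly inside the gene. Its human counterpart is known for the anaemia that follows loss of a single copy. These strongest members thus divided into genes with the region over their own body and genes whose region lay in a flank or over a neighbour.

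Among the next members by percentile the regions lay mostly outside the gene. The region of Rps12 (44.1-fold and 37.6-fold) lay 4913 bp downstream, and 2 weaker regions lay upstream of it. Rps20 had a region of 44.4-fold and 32.7-fold at a distance of 4548 bp. Rps10, one of the genes mutated in human Diamond-Blackfan anaemia, had a region of 3143 bp that began 992 bp upstream of the gene and reached 37.5-fold and 41.7-fold. A further region of Rps10 lay 4919 bp upstream with 21.9-fold and 23.2-fold. The plot of peaks around 9 of the strongest members shows the tallest peaks of both lists overlapping at each of these genes, beside smaller peaks, some of which only 1 list holds.

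**Figure D2:**
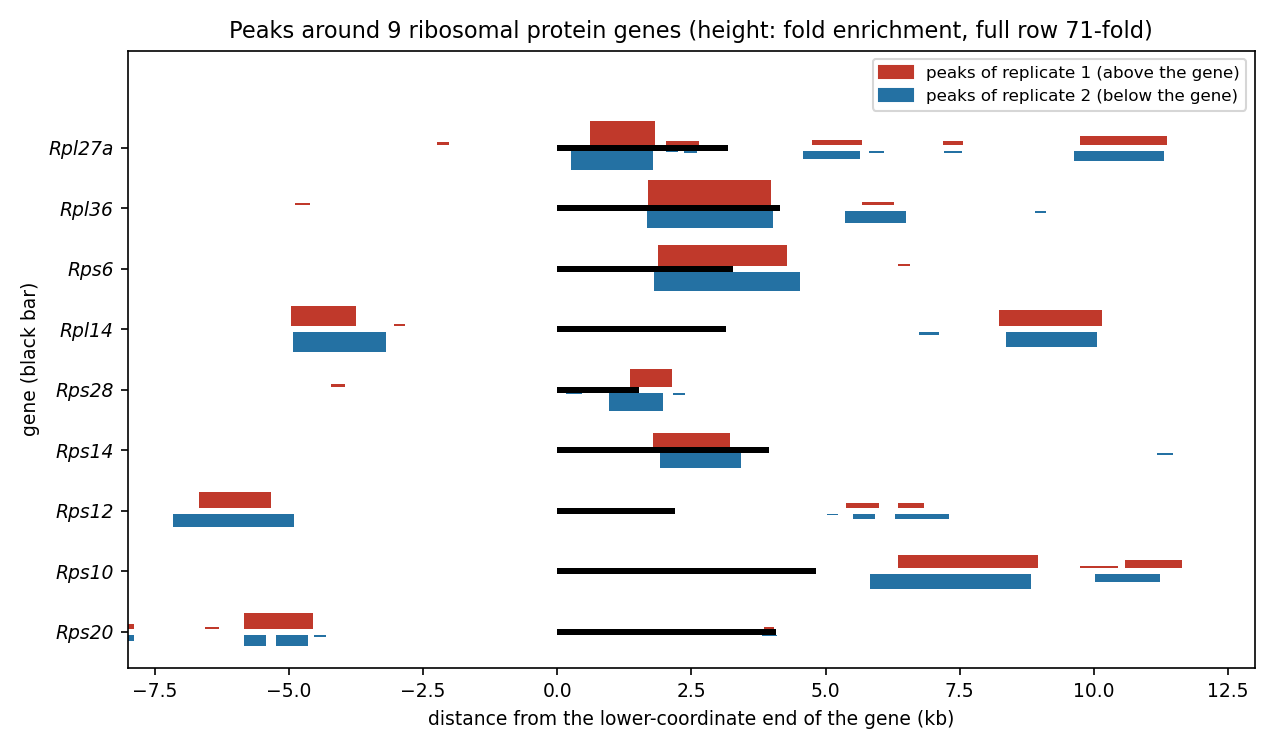
Peaks of replicate 1 (drawn above each gene) and replicate 2 (drawn below) around 9 ribosomal protein genes with a strong best region. The horizontal axis is the distance in kb from the lower-coordinate end of the gene, black bars are the genes, and box height is fold enrichment. At Rpl27a, Rpl36, Rps6, Rps28 and Rps14 the tallest boxes overlap the gene, and at Rpl14, Rps12, Rps10 and Rps20 they lie beside it.

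Further members with strong regions were Rpl35a, Rpl7 and Rpl28. Rpl35a, also a Diamond-Blackfan gene in humans, had a region of 34.8-fold and 25.9-fold that overlapped Lmln, 2448 bp downstream. Rpl7 had 37.5-fold and 20.1-fold over Rdh10, 476 bp away. Rpl28 had 20.6-fold and 34.3-fold over its own start and body.

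Some regions near members touched other genes. The following counts of place and of regions per gene were not made for other coding genes, so they describe the members only. Of 84 pairs of a member and a region within 5 kb, 30 lay over the member itself and 28 overlapped another coding gene. The best region overlapped another coding gene for 23 of the 51 members and lay over the member itself for 16. For 14 members it lay over no coding gene. The 84 pairs held 81 distinct regions, because 3 regions were within 5 kb of more than 1 member, 2 of them between Rps2 and Rpl3l. Of the 51 members, 29 had 1 region, 13 had 2, 7 had 3, and Rpl27a and Rps2 had 4 each.

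Of the 66 members with a promoter sequence in the RefSeq table (GRCm38.p6), from which strand and gene start were taken, 5 had a shared region over the first base of the gene (7.58%, interval 2.51 to 16.8%). The share was 6.92% at matched length and 8.12% of all coding genes with a known start. These 5 were Rps6, Rps28, Rpl28, Rps24 and Rpl12. Rps24 had only a weak region there (8.45-fold and 6.18-fold), and its best region, 13.6-fold and 13.3-fold, lay 917 bp upstream. Rpl12 had 8.08-fold and 12-fold, in a region that also overlapped the neighbour Lrsam1. The first bases of these genes are shown because the regions cover them. Each line gives the 30 bases from 15 before the gene start to 15 from it onwards, 5′ to 3′ on the gene's strand. Capitals mark the oligopyrimidine tract, a run of at least 5 pyrimidines counted from a C within 5 bases of the annotated first base. Where several such Cs qualified, the nearest to the first base was used, so pyrimidines just before the tract stay in lower case.
Rps6 (chr4:86857353-86857382, minus strand): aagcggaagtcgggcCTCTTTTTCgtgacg
Rpl28 (chr7:4792950-4792979, plus strand): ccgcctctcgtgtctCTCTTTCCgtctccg
Rps24 (chr14:24490663-24490692, plus strand): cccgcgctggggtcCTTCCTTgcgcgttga
Rpl12 (chr2:32961697-32961726, plus strand): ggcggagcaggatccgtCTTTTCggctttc
Rps28 (chr17:33824548-33824577, minus strand): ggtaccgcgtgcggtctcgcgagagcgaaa

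By this definition the tract was found in 4 of these 5 and not in Rps28, and it stood at 18.95% of other coding genes. It was counted from a C at the annotated first base itself in 2 of the 5, Rps6 and Rpl28. In both, a pyrimidine also stood just before that base. A tract by the same definition also stood at other members with no shared region over the first base, as in the following genes. They are a pair with a region within 1 kb of the start and a pair with no peak in either list, chosen after their values were seen.
Rpl27a (chr7:109519180-109519209, plus strand, region within 1 kb of the start): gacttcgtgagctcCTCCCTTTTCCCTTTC
Rps10 (chr17:27635230-27635259, minus strand, region within 1 kb of the start): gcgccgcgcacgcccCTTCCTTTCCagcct
Rpl38 (chr11:114668565-114668594, plus strand, no peak): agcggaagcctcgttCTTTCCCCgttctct
Rpl31 (chr1:39367836-39367865, plus strand, no peak): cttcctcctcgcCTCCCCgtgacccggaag

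The promoters of members were set against those of other genes by their letters alone, without reference to the peaks. A tract counted from a C at the annotated first base, whatever base came before, stood at 14 of 66 members (21.2%). It stood at 2.09% of other coding genes. A tract counted from a C within 5 bases of the first base stood at 30 of 66 (45.5%) and at 18.95% of other genes. The letters TTCCGG on either strand, the core recognised by ETS-family factors such as GABP, were present between 250 bases before and 50 after the start in 31 of 66 promoters (47.0%), against 19.4% of others. CCTTTT was present in 27.3% on either strand against 19.9%, GGGCGG in 56.1% against 47.3%, and TATAAA in 10.6% against 13.6%. The E-box letters CANNTG, which bHLH factors such as MyoD recognise, were present in 51.5% against 68.5%, and CAGCTG, a form that is part of CANNTG, in 7.58% against 15.2%. A match describes letters only. Of the 5 promoters with a region over the first base, 1 held TTCCGG, 1 held CANNTG and none held CAGCTG, which is too few for any comparison. The promoter of Rps6 from 200 bases before to 20 from the start, all of it under the shared region, is shown with its tract in capitals.
Rps6 (chr4:86857348-86857567, minus strand): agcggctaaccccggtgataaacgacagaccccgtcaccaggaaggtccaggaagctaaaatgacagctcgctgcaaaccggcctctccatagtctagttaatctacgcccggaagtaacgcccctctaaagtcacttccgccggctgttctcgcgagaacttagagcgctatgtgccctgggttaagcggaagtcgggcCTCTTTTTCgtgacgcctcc

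The genes of the ribosomal stalk, which recruits elongation factors, had moderate or no shared signal. Rplp0, the anchor of the stalk, had a best region of 10.3-fold and 16.1-fold that lay 3833 bp upstream over Pxn. A weak region (5.14-fold and 4.02-fold) lay inside Rplp0. Rplp2 had a region of 13.6-fold and 15.8-fold that ended 23 bp upstream of the gene and overlapped Pidd1. Rplp1 had no shared region within 5 kb, and only replicate 2 had peaks there, the strongest at 9.78-fold. Rpsa, which encodes the small subunit protein also known as the laminin receptor precursor, had 17.6-fold and 13.3-fold at 1914 bp upstream over Slc25a38. The region inside Rpsa was weak, at 3.67-fold and 3.71-fold in the lists.

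Rpl3l, the paralog of Rpl3 used in skeletal and cardiac muscle, had a region inside the gene and Rpl3 did not. On chromosome 17 the region of Rpl3l ran from 24731072 to 24732538 and reached 15.8-fold and 18.7-fold. A further region 617 bp upstream (7.71-fold and 16.7-fold) and another 3639 bp upstream (12.1-fold and 13.3-fold) also lay within 5 kb of its neighbour Rps2, so they cannot be assigned to either gene. The region 3639 bp upstream also overlapped another coding gene, Ndufb10. Rpl3 had a region of 14.7-fold and 10.5-fold, which lay 3697 bp from the gene. The paralogs Rpl22 and Rpl22l1 also differed in place. Rpl22 had its best region inside the gene (11.4-fold and 20.7-fold), and Rpl22l1 had 22.0-fold and 26.9-fold at 3854 bp downstream.

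The members whose best region was weakest were Rpl24 (4.77-fold and 3.09-fold), Rps29 (4.41-fold and 4.32-fold), Rpl6 (4.77-fold and 4.02-fold), Rps3a1 (6.80-fold and 4.02-fold) and the paralog Rpl10l (5.88-fold and 4.94-fold). These 5 best regions lay outside the gene. Members with a stronger best region also had weak ones, among them the region over Rpsa, the weakest of all 84 pairs by percentile, and those over Rplp0 and Rps20. Rpl5, whose protein joins ribosomal RNA and Rpl11 in the complex that restrains Mdm2, had a region of 5.14-fold and 8.65-fold inside the gene. Its partner Rpl11 had no peak.

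A total of 36 members had no shared region within 5 kb. Of these, 16 had no peak of either list: Rpl4, Rpl11, Rpl17, Rpl31, Rpl31-ps12, Rpl32, Rpl32l, Rpl37, Rpl37a, Rpl38, Rpl39l, Rps13, Rps23, Rps26, Rps27a and Rps27l. They made up 18.4% of members, against 24.6% at matched length and 18.2% of other coding genes. A peak in replicate 1 only was found at Rpl30, Rpl34-ps1, Rpl36al, Rps7, Rps16, Rps25, Rps27 and Rps27rt (9.20% of members, against 5.48% at matched length and 5.39% of other coding genes). A peak in replicate 2 only was found at 8 members, among them Rpl7l1, Rpl15, Rpl21, Rplp1 and Rps19 (9.20%, against 11.4% at matched length and 11.3% of others). Rps3, Rps9, Rps15 and Rps23rg1 had peaks in both lists that did not overlap (4.598%, against 5.22% at matched length and 6.18% of others). The strongest of these unshared peaks was 25.7-fold in replicate 1 at Rps9, where replicate 2 had a separate peak of 4.63-fold.

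In the 1 kb window, added after the data were seen, the members' share was further from the matched share than at 5 kb. Over the gene body it was not. A shared region lay within 1 kb of either end of 34 of 87 members (39.1%, interval 28.8 to 50.1%), against 28.7% at matched length and 27.7% of all coding genes. In replicate 1 the count was 38 (43.7%, against 34.6% at matched length and 33.7% of all). In replicate 2 it was 42 (48.3%, against 40.7% at matched length and 39.7% of all), and the intervals of both single lists (33.1 to 54.7% and 37.4 to 59.2%) included the matched share. The share at 1 kb was not tested, and the lower bound of the shared interval stood at the matched value.

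Over the gene body itself 25 members had a shared region (28.7%, interval 19.5 to 39.4%), against 26.4% at matched length. The 58.1% of all coding genes includes much longer genes. In replicate 1 the body held a peak at 30 members (34.5%, against 32.0% at matched length and 65.5% of all), and in replicate 2 at 37 (42.5%, against 37.9% at matched length and 69.6% of all). Within 10 kb the count was 66 (75.9%, interval 65.5 to 84.4%), against 70.1% at matched length and 76.5% of all. Single lists had a peak within 10 kb of 80 members each (92.0%, interval 84.1 to 96.7%). In replicate 1 this stood against 79.5% at matched length and 85.8% of all, and in replicate 2 against 83.9% and 89.7%. The interval lay above both matched shares and included both shares of all coding genes. The difference was not tested. Shared regions covered on average 6.50% of the gene and its 5 kb flanks, against 5.52% at matched length and 4.63% for other coding genes. The median distance from a member to the nearest shared region was 3153 bp, against 4198 bp at matched length. For other coding genes, which include much longer ones, it was 0 bp.

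**Figure D3:**
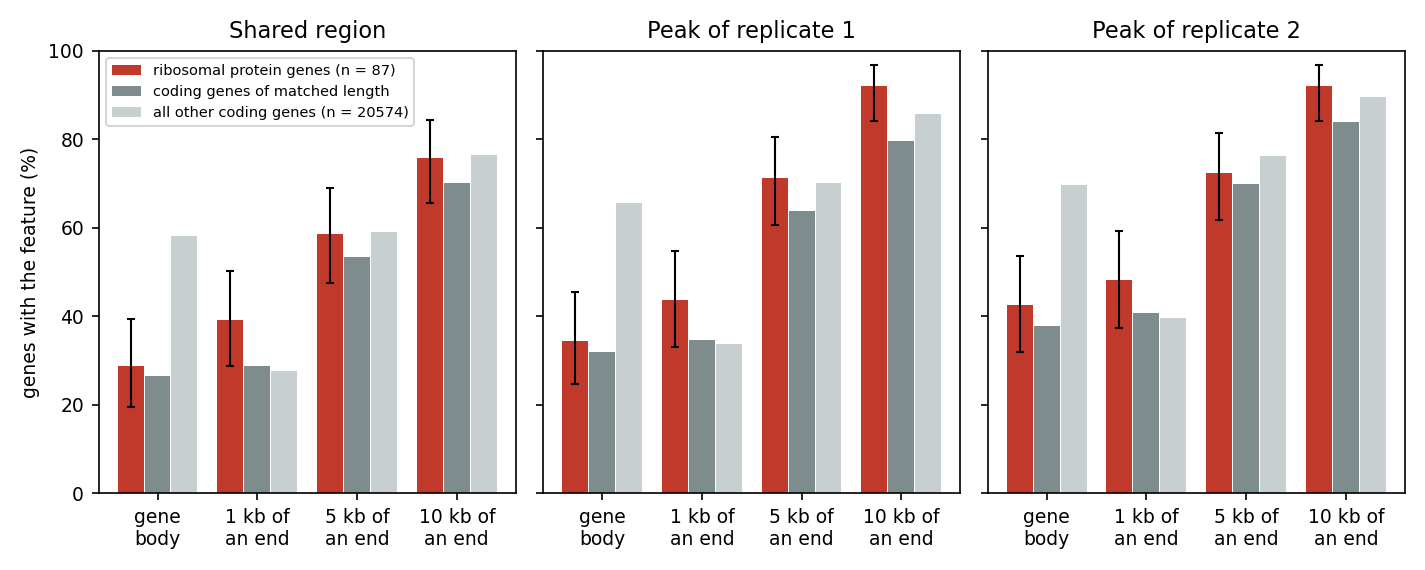
Percent of genes with a shared region (left), a peak of replicate 1 (middle) or a peak of replicate 2 (right) over the gene body or within 1, 5 or 10 kb of either end. Bars run from ribosomal protein genes (with 95% exact binomial intervals) to coding genes of matched length and all other coding genes. At 1 kb the shared bar stands at 39.1% for ribosomal protein genes and 28.7% at matched length, and at 5 kb at 58.6% and 53.4%.

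With strand taken from the promoter table, 16 of 66 members had a shared region within 1 kb of the gene start (24.2%, interval 14.5 to 36.4%), against 17.6% at matched length and 17.8% of all coding genes with a known start. Within 5 kb of the start 31 of 66 did (47.0%, interval 34.6 to 59.7%), against 44.4% at matched length and 41% of all. Within 1 kb of the gene end 13 of 66 did (19.7%, interval 10.9 to 31.3%), against 16.8% at matched length and 14% of all. Both matched shares lie within the intervals. In bins of 500 bp, 10 of 66 members (15.2%) had a region in the first bin after the start, against 10.7% at matched length. The bin from 500 to 1000 bp after the start held the same count, against 10.9%. The farthest upstream bin, from 5 to 4.5 kb before the start, also held regions at 10 of 66 members, against 6.91% at matched length. Between 2.5 and 1.5 kb before the start the share was 6.06%, close to the 6.76% and 6.30% at matched length. The highest bin of all lay near the gene end, from 1500 to 1000 bp before it, with 11 of 66 members (16.7%), against 10.2% at matched length. A region wider than a bin counts in each bin it touches, so neighbouring bins are not independent.

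**Figure D4:**
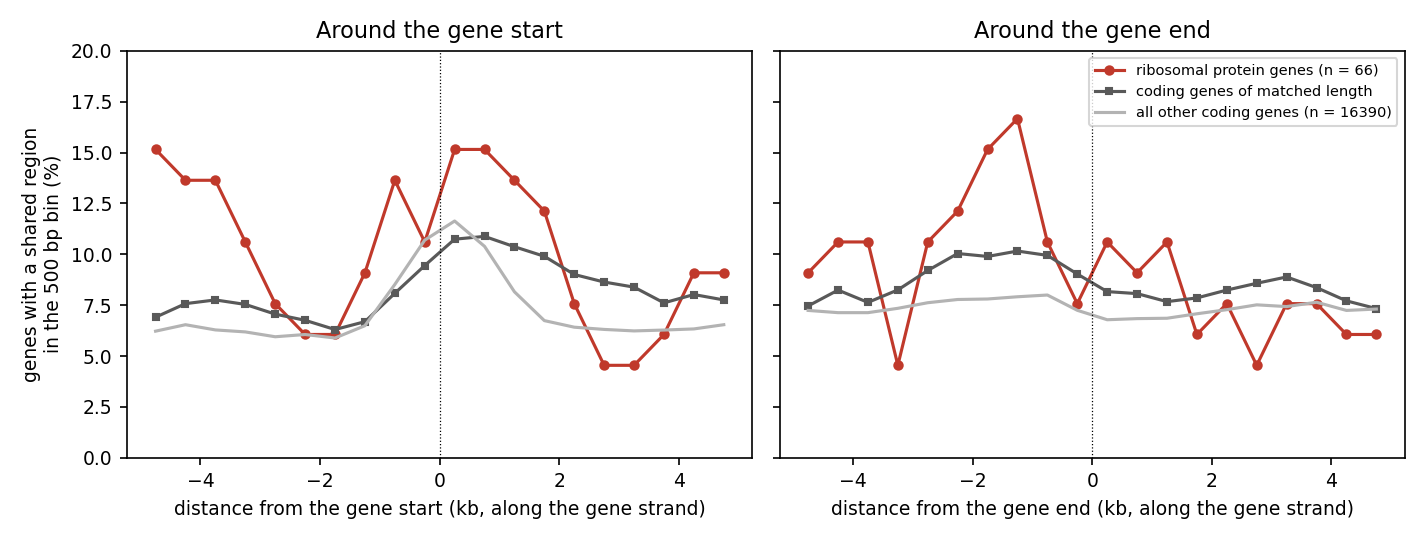
Percent of genes with a shared region in each 500 bp bin within 5 kb of the gene start (left) and gene end (right), along the strand of the gene, for 66 ribosomal protein genes, coding genes of matched length and other coding genes with a known start. The first bin after the start stands at 15.2% for ribosomal protein genes and 10.7% at matched length. The highest bin, from 1500 to 1000 bp before the gene end, stands at 16.7% and 10.2%. With 66 genes a single gene moves a point visibly.

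Of the 53 genes with the prefix Rpl, 33 had a shared region within 5 kb (62.3%, interval 47.9 to 75.2%), and of the 34 with the prefix Rps, 18 did (52.9%, interval 35.1 to 70.2%), and both intervals include the 58.9% of all coding genes. Within 1 kb the order was the other way round, with 19 (35.8%, interval 23.1 to 50.2%) and 15 (44.1%, interval 27.2 to 62.1%), beside 27.7% of all coding genes. The best region had a median percentile of 69.5 for genes with the prefix Rpl and 85.2 for those with the prefix Rps. Among the ribosomal proteins proper it was 67.4 and 86.7, from 29 and 17 genes with a region. These differences were not tested. Of the 73 ribosomal proteins proper, 46 had a region within 5 kb (63.0%, interval 50.9 to 74.0%), against 54.1% at their matched length and 58.9% of all coding genes. Of the other 14 genes, 5 did (35.7%, interval 12.76 to 64.9%).

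Small nucleolar RNA genes lay inside 28 of the 87 members (32.2%, 57 such RNAs in all), against 1.59% of other coding genes. These RNAs guide the modification of ribosomal RNA. Of the 28 hosts, 18 had a shared region within 5 kb (64.3%, interval 44.1 to 81.4%), and of the 59 members without one, 33 did (55.9%, interval 42.4 to 68.8%). Both intervals include the 58.9% of all coding genes. Within 1 kb the shares were 39.3% and 39.0%, beside 27.7% of all coding genes. Among hosts, Rpl4 has 5 such RNAs and no peak.

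Other genes of ribosome production were counted in the same way. The strongest regions named for them are the best within 5 kb, and whether they lay over the gene or over a neighbour was not examined. The 78 mitochondrial ribosomal protein genes, whose products form the separate ribosome of mitochondria, had a shared region within 5 kb at 44 (56.4%, against 59.8% at matched length) and within 1 kb at 22 (28.2%, against 30.4%). Their strongest regions were near Mrpl37 (66.8-fold and 60.2-fold), Mrpl2 (44.4-fold and 47.3-fold) and Mrpl28 (61.3-fold and 32.5-fold). Of 36 other ribosome and translation genes, 22 had a region within 5 kb (61.1%, against 61.5%) and 12 within 1 kb (33.3%, against 30.6%). They were led by Eif5a, the translation factor that carries hypusine (88.1-fold and 69.8-fold), the growth-related gene Tpt1 (38.3-fold and 46.9-fold) and the scaffold gene Eif4g1 (25.3-fold and 63.0-fold).

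Of 31 genes of RNA polymerase I and ribosome biogenesis, 21 had a region within 5 kb (67.7%, against 62.8%) and 11 within 1 kb (35.5%, against 29.3%). The strongest were near the selectivity factor gene Taf1b (47.7-fold and 69.2-fold), Utp4 (43.3-fold and 49.7-fold) and Bop1 (16.2-fold and 34.3-fold). Of 17 genes of transcription factors and mTOR control, 11 had a region within 5 kb (64.7%, against 62.2%) and 7 within 1 kb (41.2%, against 27.9%). They included Tsc2, which restrains mTOR (75.3-fold and 50.9-fold), Akt1 (43.7-fold and 42.005-fold) and the kinase gene Rps6kb2 (58.0-fold and 30.4-fold). The matched share lay within the interval of each of these 4 lists in both windows.

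**Figure D5:**
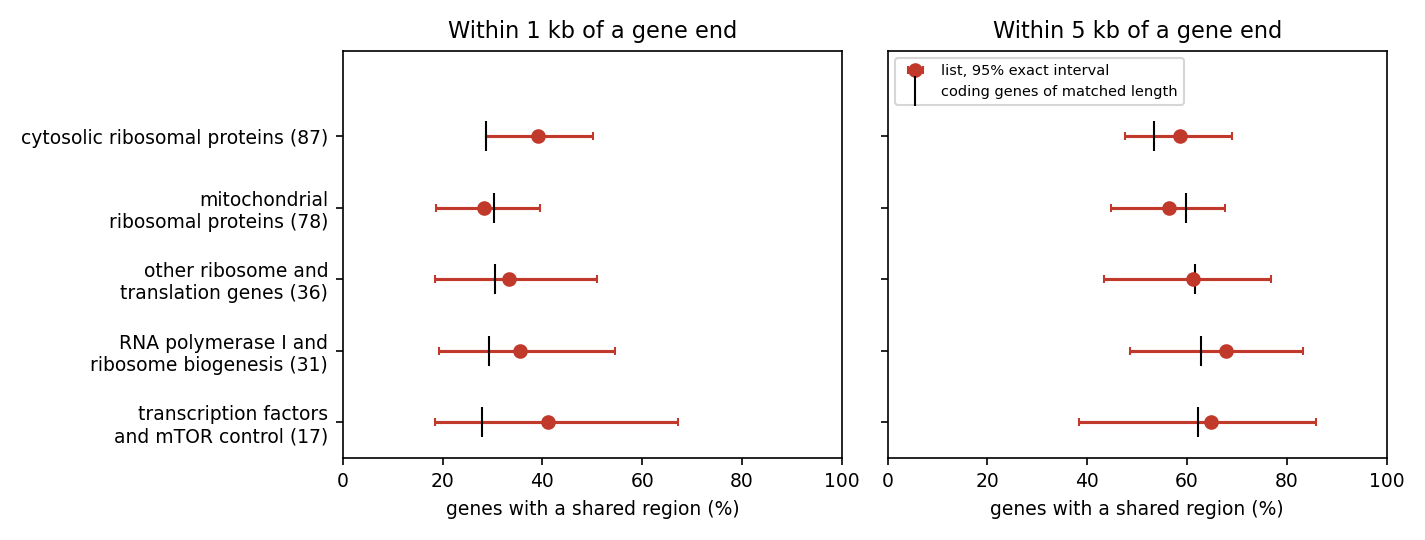
Percent of genes with a shared region within 1 kb (left) and 5 kb (right) of either end, for cytosolic ribosomal protein genes and 4 related lists, with the number of genes in brackets. Points are the lists with 95% exact binomial intervals, and black ticks are coding genes of matched length. At 5 kb every tick falls inside its interval.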

How the data were processed

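The members, gene lists and comparisons were chosen with earlier results of these data known. The deposited files were 2 narrowPeak lists, 1 per replicate. Per the submitters' processing notes, build mm10 was used with the aligner Bowtie2 (2.3.2), Picard (2.9.2) and the peak caller MACS2 (2.1.1). The sources used here do not state the caller's threshold or its treatment and control libraries. Per the narrowPeak layout the authors deposited a fold enrichment ratio at each summit, q as −log10 values, a display score (not used further) and the summit offset. Each list was treated as a pooled list with no SD or n. Libraries were made by tagmentation, per the labels' protocols, and transposases have sequence preferences that were not corrected here.

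Genes came from a RefSeq table of GRCm38.p6, the assembly of mm10, and strand, starts and sequences from RefSeq promoters of the same build. Of 87 members, 66 matched a promoter. The window is 5 kb either side of both gene ends. For matched length, the share among each member's 200 nearest other coding genes was averaged over members, with no test. Matched values of strength and distance are the mean over members of the median of these genes, and matched coverage is a mean of means. Named genes were the 15 strongest and 5 weakest best regions, regions over a gene start, and Rpl3l, Rpl3, Rplp0, Rplp1, Rplp2, Rpsa, Rps6, Rpl22 and Rpl22l1. Some genes that this rule names are not reported here by name or drawn singly, and all counts include them. Rpl5, Rpl11, Rps9, Rpl4 and the extra genes with printed sequences were chosen after their values were seen. The code was tested on simulated data. Tables were handled with pandas 2.3.3 and numpy 2.4.6 under Python 3.11.15, intervals came from scipy 1.17.1 and plots from matplotlib 3.10.9.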

Additional observations from a re-analysis of the deposited data

How the results depend on the processing

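The count of ribosomal protein genes with a shared region within 5 kb was 51 and stayed within 1.5 times of this under 11 alternatives. It was 63 from replicate 2 alone and 62 from replicate 1 alone. It was 8 among the 10000 strongest peaks of each list (9.20% of members, against 6.30% at matched length and 7.28% of all coding genes). It was 25 over the gene body alone and 31 of 66 around the gene start. Without members whose best region overlaps another coding gene and not the member itself, it was 30 of 66. That alternative removes only genes with a region. The matched share of 53.4% was 47.1% at a fold of at least 5 (members 50.6%), 6.30% among the strongest peaks, 28.7% at 1 kb, 70.1% at 10 kb, 63.8 to 69.9% in single lists, and 58.3% when promoter GC was matched as well, where the 66 members with a promoter stood at 57.6%. The count within 1 kb, added after the data were seen, was 34, from 38 to 42 in single lists and 6 among the strongest peaks (6.90% of members, against 3.32% at matched length). Its matched share of 28.7% was 34.6 to 40.7% in single lists, and 31.5% with promoter GC matched, where members stood at 37.9%. Across all these alternatives at 1 kb the members' share was above the matched share. The median percentile of 73.3 was 68.5 within 1 kb, and from 67.8 to 71.7 in single lists. No paired analysis was possible because each replicate has a single pooled list and no groups were compared. Read depth and a control list were not available here to set a floor on weak peaks.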

Other observations

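The rule leaves out chromosome X, which holds 4 further ribosomal protein genes. Rpl10 had a shared region within 5 kb, with 5.88-fold in replicate 1 and 8.03-fold in replicate 2. Rps4x and Rpl36a had a peak of replicate 2 only, and Rpl39 had none. Ribosomal protein genes have many processed pseudogenes, to which reads of the genes' exons can also align, and how such reads were handled is not given in the sources used here. Of 272 ribosomal protein pseudogenes on chromosomes 1 to 19, 113 had a shared region within 5 kb (41.5%, 95% exact interval 35.6 to 47.7%), against 38.8% of 9047 other pseudogenes. Within 1 kb the shares were 16.9% and 16.6%. Over the pseudogene itself they were 10.7% (interval 7.26 to 14.95%) and 13.5%. None of these pseudogene shares was matched for length. The part of shared sequence in the peaks at the coding genes was not tested.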
